A study of Mus musculus with 6 samples.

Results

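Inflammasomes are protein assemblies that form in the cytosol of an alarmed cell and lead to a lytic form of cell death called pyroptosis. The 10 genes described here encode the sensors, the adaptor, the caspases and the pore protein of this machinery, and they were chosen by gene symbol from the 26110 genes listed. The sensors are Nlrp3, Nlrp1b, Nlrp6, Nlrc4, Naip5 and Aim2, the adaptor is Pycard, the caspases are Casp1 and Casp4, and the pore protein is Gsdmd. All 10 symbols were in the table, and all 10 genes passed the filter on low values. Their RNA was measured by bulk RNA sequencing in cells with high MHC class II (MHCIIhi) from the muscularis externa (ME), the muscle layer of the small bowel wall. The cells were sorted into a CX3CR1- and a CX3CR1+ population, with 3 libraries of each, and the comparison asks how the transcriptomes of these populations differ. All libraries came from naive, untreated mice of the genotype CX3CR1+/GFP, in which the green fluorescent protein replaces 1 copy of the chemokine receptor gene Cx3cr1 and served as the sorting signal. The study used female mice on a C57BL/6 background, and their age is not given in the sources used here. For sequencing, tissue from 6 mice was combined for a group. Whether each library had its own animals is not given in the sources used here, so p-values measure the spread between libraries, which may be technical. The labels call the cells dendritic cells, whereas the study treats both populations as macrophages.

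Most inflammasome sensors carry a receptor part that detects a microbial product or a disturbed cell, and a part that recruits the next protein. NLRP3 responds to many kinds of damage, including loss of potassium from the cell, NLRC4 is engaged by NAIP proteins that bind bacterial flagellin or secretion system parts, NLRP1B is activated by bacterial proteases, and AIM2 binds double-stranded DNA. NLRP6 is known from the intestinal epithelium, where it has been linked to mucus secretion and to defence against microbes. The adaptor ASC, encoded by Pycard, bridges sensors to caspase-1, which matures interleukin-1 beta and interleukin-18 and cuts gasdermin D, encoded by Gsdmd. Casp4 is the symbol for the mouse gene of caspase-11, which binds bacterial lipopolysaccharide in the cytosol and cuts gasdermin D without a sensor of this kind. In macrophages the RNA of Nlrp3 is kept low until a priming signal through Toll-like receptors and NF-kappaB raises it.

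The sequences just before the transcription starts of the 4 members that differed by at least 2-fold are given here, so that the letters can be seen beside the values. Each is the stretch of 250 bases before the RefSeq start on GRCm38.p6, written 5′ to 3′ along the gene, and capitals mark a match to a motif that was searched.
Nlrp3, chr11:59541319-59541568, plus strand: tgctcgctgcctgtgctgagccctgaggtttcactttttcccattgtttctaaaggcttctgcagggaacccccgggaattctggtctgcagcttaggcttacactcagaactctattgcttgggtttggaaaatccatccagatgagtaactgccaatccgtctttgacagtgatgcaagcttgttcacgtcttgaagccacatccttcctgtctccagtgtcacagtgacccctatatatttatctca
Nlrc4, chr17:74459109-74459358, minus strand: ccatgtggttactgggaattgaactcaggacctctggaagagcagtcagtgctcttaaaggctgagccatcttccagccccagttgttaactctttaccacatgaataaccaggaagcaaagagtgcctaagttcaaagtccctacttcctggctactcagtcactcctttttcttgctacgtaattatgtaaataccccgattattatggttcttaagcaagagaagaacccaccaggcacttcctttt
Casp4, chr9:5308599-5308848, plus strand: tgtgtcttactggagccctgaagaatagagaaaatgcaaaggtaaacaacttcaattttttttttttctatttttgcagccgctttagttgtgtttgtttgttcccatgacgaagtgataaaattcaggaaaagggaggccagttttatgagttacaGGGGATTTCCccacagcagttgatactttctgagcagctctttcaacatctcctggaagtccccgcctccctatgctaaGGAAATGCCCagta
Nlrp6, chr7:140920652-140920901, plus strand: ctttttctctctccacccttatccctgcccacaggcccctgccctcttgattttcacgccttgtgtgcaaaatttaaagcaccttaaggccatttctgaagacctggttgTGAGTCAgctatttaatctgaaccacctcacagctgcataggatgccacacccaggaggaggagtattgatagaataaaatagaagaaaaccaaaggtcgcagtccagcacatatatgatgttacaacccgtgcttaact
RefSeq promoters were matched for 9 of the 10 members, with 12 starts in all, and the member without one was Gsdmd. The motifs were searched on both strands and spelled GAGGAAGT for PU.1, TGANTCA for AP-1 and CAAAGTCCA for HNF4, where N is any base. The interferon-stimulated response element was searched as GAAA, any 2 bases and GAAA, the HNF1 motif as GTTAAT, any 1 base and ATTAA, and the NF-kappaB motif as GGG, any 2 bases and TTTCC. Nlrp6 held the AP-1 letters at 140 to 134 bases before its start, and 6.75% of 32851 mouse promoters of the same length hold them. Casp4 held the NF-kappaB letters at 93 to 84 bases before its start and, on the opposite strand, at 14 to 5 bases, and 1.41% of promoters hold them. None of the 6 motifs was found in the windows shown for Nlrp3 and Nlrc4. With the wider NF-kappaB letters of GGG, any 5 bases and CC, the Nlrp3 window held a match at 186 to 177 bases before its start. These wider letters are held by 45.8% of promoters and are not marked in capitals. The PU.1 letters, present in 2.44% of promoters, stood in windows of 3 members that did not differ by 2-fold, and are shown in 30 bases of context.
Aim2, chr1:173420480-173420509, plus strand: aaaccttattgGAGGAAGTgggtcactgag
Pycard, chr7:127993893-127993922, minus strand: gtccccaccccACTTCCTCcaccaacccac
Nlrp1b, chr11:71230811-71230840, minus strand: cccagtgtttaGAGGAAGTgcatctgtgca
The response element, HNF4 and HNF1 letters are held by 2.98%, 0.384% and 0.0609% of promoters and were found in no window of a member. A match is a description of these letters only.

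The deposited values are normalized between libraries and not by gene length. The libraries held about 5346504 to 17617358 reads assigned to genes, and 3 reads corresponded to a normalized value of 1.39 to 5.36. The populations differed in more than their lineage genes. Mitochondrially encoded genes took 47.5 to 54.9% of the normalized total in CX3CR1- libraries and 18.1 to 21.2% in CX3CR1+ libraries. All 12 macrophage markers were lower in CX3CR1- cells, with a summed value of 11475 to 13945 against 58991 to 65570. Among them Cx3cr1, whose locus carried the sorting signal, lay at 18.9 to 28.5 against 347 to 380.4. Of 10 markers of conventional dendritic cells, 9 were higher in CX3CR1- cells, where the sum was 4044 to 4372 against 303 to 366. The defining dendritic cell genes Zbtb46 and Flt3 were low but not absent in CX3CR1+ cells, at 41.2 to 46.8 and 18.7 to 19.5. The shared label of dendritic cells thus stands against the marker pattern of the CX3CR1+ population. For CX3CR1- cells the RNA was mixed, since the macrophage markers were lower there but not absent. By flow cytometry the study found CD11c and CD103 on very few CX3CR1- cells and CD11b on most. It also saw the macrophage marker IBA-1 on them by staining. All 13 epithelial markers were higher in CX3CR1- cells, where they summed to 18985 to 34761, against 27.7 to 59.3 in CX3CR1+ cells with Alpi and Tff3 at 0 in every CX3CR1+ library. Markers of fibroblasts (6 of 6 higher in CX3CR1- cells, sum 4117 to 12168 against 181 to 316) and of B and plasma cells (5 of 6 higher, 1440 to 3746 against 58.6 to 89.3) also differed. Monocyte markers were mixed, with 4 of 6 tested called higher and a sum of 2647 to 4737 against 2352 to 2431. Among them Ly6c2 overlapped between the populations. F13a1 went the other way, with means of 1007 in CX3CR1- and 1607 in CX3CR1+ cells, and was not called. In bulk RNA, fewer cells of a type and less RNA per cell cannot be told apart. The part of these differences in the results on the members was not tested.

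Of the 10 members, Nlrp3, Nlrc4 and Casp4 were lower in CX3CR1- cells and Nlrp6 was higher, whereas Nlrp1b, Naip5, Aim2, Pycard, Casp1 and Gsdmd did not pass both thresholds. A gene was called when its log2 fold change was at least 1 in either direction and its adjusted p was at most 0.05, from limma on log2(value + 1) over the 17812 genes that averaged at least 10. A negative log2 fold change means a lower value in CX3CR1- cells. Over all tested genes, 12.2% were called higher in CX3CR1- cells and 8.15% were called lower. Among the members 1 of 10 was called higher, namely Nlrp6, which passed the filter through its CX3CR1- libraries alone, and this share is near that background, and 3 of 10 were called lower. The values of the populations did not overlap in 2 members that were higher and 4 that were lower in CX3CR1- cells, where 20.3% and 19.8% of all tested genes had no overlap in these directions. The median log2 fold change of the members was -0.29, beside -0.0035 for all tested genes.

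**Figure D1:**
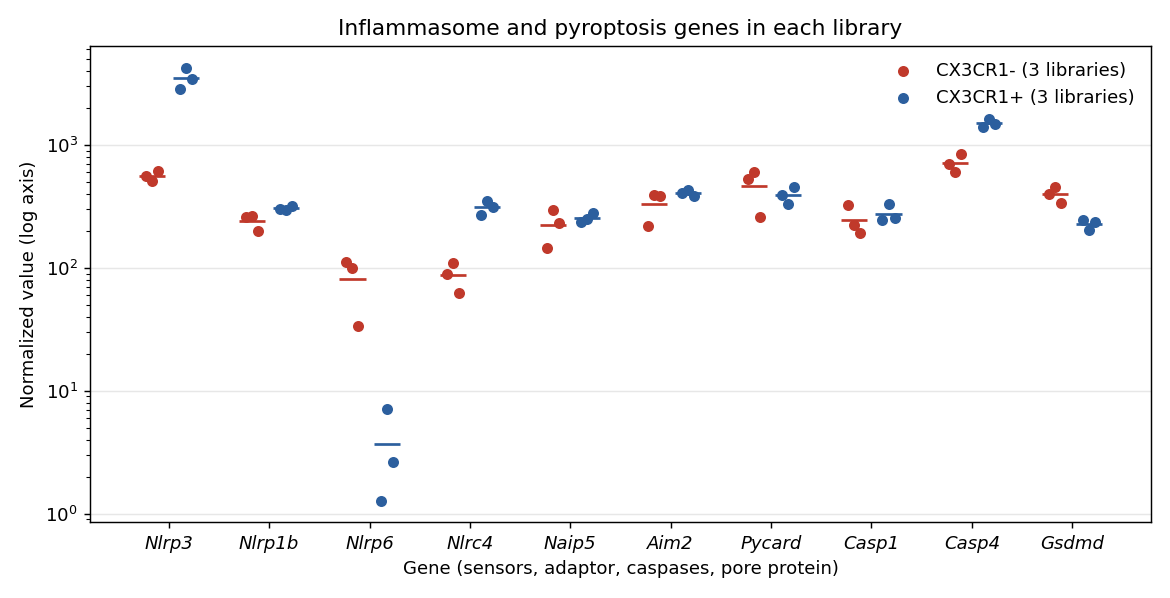
Normalized value of each of the 10 genes in every library, on a log axis, with 1 point per library (CX3CR1- red, CX3CR1+ blue, 3 libraries each) and a bar at the mean. Nlrp3, Nlrc4 and Casp4 lie lower in all CX3CR1- libraries, Nlrp6 and Gsdmd lie higher, and the points of Naip5, Aim2, Pycard and Casp1 overlap.

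Nlrp3 (ENSMUSG00000032691.14), the sensor of damage and potassium loss, lies at chr11:59541568-59566956 on the plus strand and has 10 exons in its principal transcript. Its normalized values were 564, 505 and 611 in CX3CR1- replicates 1, 2 and 3, and 2863, 4258 and 3445 in the CX3CR1+ replicates. Every CX3CR1- library lay far below every CX3CR1+ library. The means were 559.7 ± 53.2 (SD, n = 3) and 3522 ± 701 (SD, n = 3), so the RNA was 6.29-fold lower in CX3CR1- cells. The log2 fold change was -2.64 (SE 0.18, 95% interval -3.04 to -2.23) with an adjusted p of 8.50e-06 from limma. Among the members this was the largest difference in the direction of CX3CR1+ cells. The macrophage markers moved with it, 12 of 12 being lower in CX3CR1- cells and none at 0 in all libraries of a population, and their part in the differences of Nlrp3, Nlrc4 and Casp4 was not tested.

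The other sensor that was lower in CX3CR1- cells was Nlrc4 (ENSMUSG00000039193.9, chr17:74425438-74459142, minus strand), which is brought into the inflammasome by NAIP proteins. It had values of 89.7, 109 and 62.8 in CX3CR1- cells and 271, 349 and 314 in CX3CR1+ cells. The highest CX3CR1- library was below the lowest CX3CR1+ library. Nlrc4 averaged 87.2 ± 23.2 (SD, n = 3) against 312 ± 39.0 (SD, n = 3), a 3.57-fold lower value, with a log2 fold change of -1.85 (SE 0.27, 95% interval -2.45 to -1.26) and an adjusted p of 6.57e-04 by limma.

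Naip5 (ENSMUSG00000071203.6, chr13:100211739-100246323, minus strand), the flagellin receptor that works through NLRC4, did not differ beyond the spread of the libraries. Its values were 144, 297 and 230.4 in CX3CR1- cells and 235, 252 and 279 in CX3CR1+ cells. CX3CR1- libraries lay both below and above the CX3CR1+ range. The means of 224 ± 76.6 and 255 ± 22.0 (SD, n = 3 each) gave a log2 fold change of -0.25 with a 95% interval of -0.87 to 0.37 and an adjusted p of 0.572 in limma. Of the 31-base stretches in its transcripts, 53.1% also occur in other genes, 36.7% in Naip6 and 22.9% in Naip1, so the split of reads between these paralogs is uncertain. The paralogs Naip6 and Naip2 did not pass the test either. Naip6 averaged 307 ± 82.3 against 299 ± 22.7 with an adjusted p of 0.980 by limma, and Naip2 averaged 195 ± 39.9 against 219 ± 41.6 with 0.678. Naip1, a receptor for the needle protein of bacterial secretion systems, was scarce. Its values were 14.7, 27.8 and 17.8 in CX3CR1- cells and 2.91, 0.862 and 6.26 in CX3CR1+ cells, with 1 CX3CR1+ library under the value of 3 reads. All CX3CR1- libraries were above all CX3CR1+ libraries, and the fitted log2 fold change was 2.44 (SE 0.73, adjusted p 0.0349 by limma), or 1.17 with a pseudocount of 10. Naip1 also passed the filter through its CX3CR1- libraries only, so these values are a description. The call was lost in limma without CX3CR1- replicate 3 (adjusted p 0.0574), CX3CR1+ replicate 1 (0.0914) or CX3CR1+ replicate 2 (0.121), and with quantile normalization (0.101).

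Nlrp6 (ENSMUSG00000038745.15, chr7:140920902-140929192, plus strand), the sensor known from the intestinal epithelium, was the only member called higher in CX3CR1- cells. Its values were 111, 99.8 and 34.0 in CX3CR1- cells and 1.28, 7.18 and 2.61 in CX3CR1+ cells. CX3CR1- replicate 3 was the lowest of its group and still above every CX3CR1+ library. The values of CX3CR1+ replicates 1 and 3 lay at or under 3 reads. The means were 81.8 ± 41.8 (SD, n = 3) and 3.69 ± 3.09 (SD, n = 3), a ratio of 22.2. On the log2(value + 1) scale the fitted difference was 4.17 (SE 0.66, adjusted p 0.00116 by limma), and with a pseudocount of 10 it was 2.64, so its size depends on the pseudocount. Nlrp6 passed the filter on low values through its CX3CR1- libraries only, so the direction of its call was bound to that choice and is given as a description. The epithelial markers moved with it. All 13 of 13 were higher in CX3CR1- cells, and their sum was 34761, 29796 and 18985 in CX3CR1- replicates 1, 2 and 3 and 59.3, 27.7 and 30.7 in the CX3CR1+ replicates, with Alpi and Tff3 at 0 in the latter. CX3CR1- replicate 3 had the lowest Nlrp6 and the lowest marker sum of its group. The single markers did not all follow this order. Epcam, Krt8 and Krt18 were lowest in CX3CR1- replicate 2, Cdh1 in CX3CR1- replicate 1, and the others in CX3CR1- replicate 3. Most of the sum came from Fabp2, at 21161, 21001 and 12559 in CX3CR1- replicates 1, 2 and 3. In the CX3CR1+ libraries Nlrp6 and most of the markers lay near the value of 3 reads, so their order there is not read. Most markers of fibroblasts, conventional dendritic cells and B and plasma cells were also higher in CX3CR1- cells. The part of epithelial RNA in the Nlrp6 value was not tested.

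**Figure D2:**
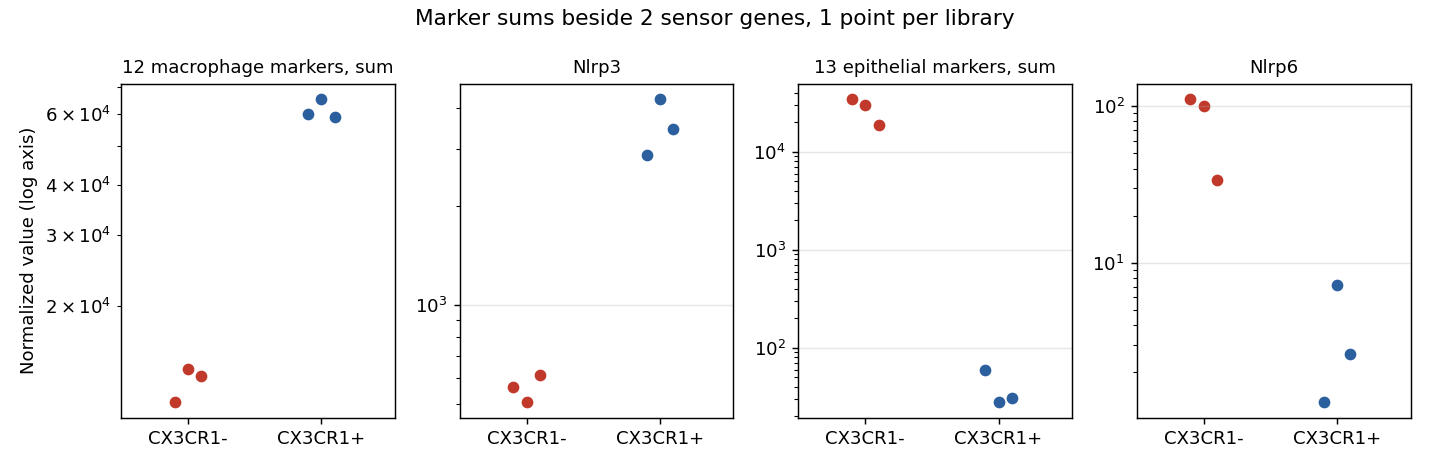
Summed normalized value of the 12 macrophage markers, Nlrp3, the summed value of the 13 epithelial markers and Nlrp6, each on its own log axis with 1 point per library (CX3CR1- red, CX3CR1+ blue). Macrophage markers and Nlrp3 are lower in the 3 CX3CR1- libraries, and epithelial markers and Nlrp6 are higher in them. CX3CR1- replicate 3 is the lowest of its group for the epithelial sum and for Nlrp6.

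Nlrp1b and Aim2 were the sensors with the smallest differences between populations after Naip5, and neither was called. Nlrp1b (ENSMUSG00000070390.12, chr11:71153102-71230733, minus strand) had values of 261, 263 and 200.1 in CX3CR1- cells and 303, 297 and 316 in CX3CR1+ cells. Although every CX3CR1- library was below every CX3CR1+ library, the means of 241 ± 35.6 and 305 ± 9.80 (SD, n = 3 each) lay close. The log2 fold change was -0.35 (95% interval -0.81 to 0.11, adjusted p 0.262 by limma). Its paralog Nlrp1a on the same chromosome, with which Nlrp1b shares 4.62% of its 31-base stretches, averaged 36.2 ± 14.5 against 74.1 ± 14.1 and was not called either, at a log2 difference of -1.07 and an adjusted p of 0.0639 from limma. That value passed both thresholds with quantile normalization (-1.37, adjusted p 0.0300 by limma) and without CX3CR1- replicate 1 (-1.36, adjusted p 0.0298).

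Aim2 (ENSMUSG00000037860.15, chr1:173350879-173466040, plus strand), the DNA sensor, had values of 218, 389 and 385 in CX3CR1- cells and 404, 429 and 383 in CX3CR1+ cells. CX3CR1- replicate 1 stood apart at the low end, whereas replicates 2 and 3 were within or next to the CX3CR1+ range. The means were 331 ± 97.4 and 405 ± 22.9 (SD, n = 3 each), and the log2 fold change was -0.34 (95% interval -0.90 to 0.22, adjusted p 0.374 by limma).

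The adaptor Pycard (ENSMUSG00000030793.4, chr7:127989708-127993867, minus strand), which the sensors with a pyrin domain need to reach caspase-1, showed no difference beyond the spread. Its values were 532, 602 and 259.8 in CX3CR1- cells and 395, 329 and 454 in CX3CR1+ cells. The CX3CR1- libraries spanned the whole CX3CR1+ range. The means were 465 ± 181 and 393 ± 63.0 (SD, n = 3 each), and the log2 fold change was 0.17 (95% interval -0.52 to 0.85, adjusted p 0.744 by limma). Of its 31-base stretches, 11.99% also occur in the gene model Gm45205.

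Casp1 and Casp4 both lie on the plus strand of chromosome 9, with Casp4 lower in CX3CR1- cells and Casp1 not called. Casp1 (ENSMUSG00000025888.5, chr9:5298517-5307265), the protease of the canonical inflammasome, had values of 326, 222 and 192 in CX3CR1- cells and 246, 329 and 255 in CX3CR1+ cells. These ranges overlapped. The means of 247 ± 70.0 and 276 ± 45.6 (SD, n = 3 each) gave a log2 fold change of -0.19 (95% interval -0.75 to 0.37, adjusted p 0.643 by limma). Casp4 (ENSMUSG00000033538.13, chr9:5308828-5336783), the lipopolysaccharide sensor and protease, had values of 695, 604 and 840.3 in CX3CR1- cells and 1400.3, 1618 and 1475 in CX3CR1+ cells. The populations were separated without overlap. Casp4 averaged 713 ± 119 (SD, n = 3) against 1498 ± 111 (SD, n = 3), 2.10-fold lower in CX3CR1- cells. On the log2 scale this was -1.08 (SE 0.18, 95% interval -1.47 to -0.69), with an adjusted p of 0.00143 by limma. The difference lies close to the 2-fold threshold and fell below it without CX3CR1- replicate 2 (-0.97, adjusted p 0.00379 by limma). It was also under 2-fold with quantile normalization (-0.75, adjusted p 0.0165 by limma) and with equal totals of the genes that are not mitochondrially encoded (-0.91, adjusted p 0.00661 by limma). The paralog Casp12, also on chromosome 9, was scarce at 15.2 ± 9.54 against 8.14 ± 1.30 and was not called (adjusted p 0.545 by limma).

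Gsdmd (ENSMUSG00000022575.5, chr15:75862327-75867408, plus strand), whose product forms the membrane pore, went in the opposite direction to Casp4. Its values were 396, 456 and 340.05 in CX3CR1- cells and 247, 202 and 238 in CX3CR1+ cells. Every CX3CR1- library was above every CX3CR1+ library. The means were 397 ± 58.0 (SD, n = 3) and 229 ± 23.7 (SD, n = 3), a 1.74-fold higher value in CX3CR1- cells. This log2 fold change of 0.79 (SE 0.21, 95% interval 0.33 to 1.25) had an adjusted p of 0.0196 in limma and stayed under the 2-fold threshold, so Gsdmd was not called. Without CX3CR1+ replicate 2 or 3 its adjusted p was 0.0937 or 0.0588.

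**Figure D3:**
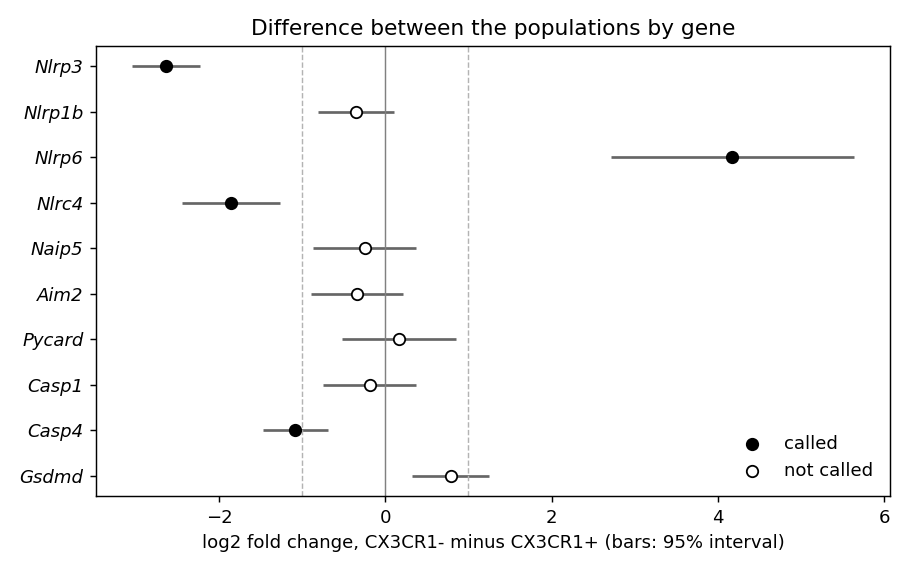
Log2 fold change of each member between CX3CR1- and CX3CR1+ cells (3 libraries each) with its 95% interval from limma as a bar, filled where the gene was called, and dashed lines at 1 and -1. The intervals of Nlrp3 and Nlrc4 lie below -1, that of Nlrp6 lies above 1, that of Casp4 crosses -1, that of Gsdmd lies above 0 and crosses 1, and the other 5 cross 0.

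To compare levels between genes, the values were divided by the length of the principal transcript in kilobases. Overlap here compares the ranges of neighbouring genes over the libraries of a population, not their order within a library. Within each CX3CR1+ library Casp4 was above Nlrp3, and within each CX3CR1- library Gsdmd was above Casp1, although these ranges overlapped. Per kilobase of transcript, Casp4 had the highest level in both populations, at 497 ± 83.1 in CX3CR1- cells and 1044 ± 77.2 in CX3CR1+ cells (SD, n = 3 each). In CX3CR1- cells the next levels per kilobase were those of Gsdmd at 222 ± 32.4, Casp1 at 165 ± 46.7, Nlrp3 at 139 ± 13.2, Pycard at 122 ± 47.6 and Aim2 at 116 ± 34.3, and each of these overlapped with its neighbour in the order. Nlrp1b at 58.3 ± 8.61, Naip5 at 43.0 ± 14.7, Nlrc4 at 18.4 ± 4.91 and Nlrp6 at 18.4 ± 9.43 followed. In the lower part of this order Nlrp1b and Naip5 overlapped with each other, and so did Nlrc4 and Nlrp6. In CX3CR1+ cells Nlrp3 took the place after Casp4, with 876 ± 174 per kilobase, and the ranges of these genes overlapped. Casp1 at 185 ± 30.5 and Aim2 at 143 ± 8.06 came next, each apart from the gene above it, and then Gsdmd at 128 ± 13.3 and Pycard at 103 ± 16.6, which overlapped with their neighbours above. Nlrp1b at 73.8 ± 2.37 overlapped with Nlrc4 at 65.9 ± 8.25, and Naip5 at 49.1 ± 4.23 and Nlrp6 at 0.832 ± 0.697 closed the order without overlap. Most of the annotated Pycard transcript of 3800 bases is not coding, and the order depended on the length used. Per kilobase of coding sequence, Pycard with its 579 coding bases averaged 802 in CX3CR1- cells and stood above Casp4 at 637, Aim2 moved to place 3 at 311, and Nlrp3 moved to place 6 at 181. In CX3CR1+ cells the coding levels of Casp4, Nlrp3 and Pycard were 1339, 1136 and 678, in this order.

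The genes whose pattern over the 6 libraries was most like that of a member were found by the Euclidean distance between centred log2(value + 1) profiles, over all tested genes. For Nlrp3 they were the gene models Gm38043 and Gm38843, at distances of 0.355 and 0.360. Nlrc4 was closest to Mcfd2 (0.261) and Mapk6 (0.275), and Casp4 to Plscr3 (0.149) and Cyp27a1 (0.161). Nlrp6 had no gene as near, with Mamdc2 at 0.812 and Gm13373 at 0.907. Among the members that were not called, Nlrp1b was closest to Mynn and Pole4, Naip5 to Olfr1191-ps1 and Pclaf, Aim2 to Pabpn1 and Gm42702, Pycard to Ociad1 and C2cd3, Casp1 to Eif4a3 and Gm42611, and Gsdmd to Gm37993 and Ap1ar, at distances from 0.0843 to 0.303. No member was among the closest genes of another member.

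The other genes of the pathway were taken from a hand-written list of 59 symbols, of which 52 were in the table and 48 passed the filter. Of these 48 genes, 7 (14.6%) were called higher and 6 (12.5%) were called lower in CX3CR1- cells, beside backgrounds of 12.2% and 8.15%. Their median log2 fold change was -0.15. The genes called higher included Naip1, Gsdme and 4 of the 8 listed as inhibitors, and those called lower had roles in priming, release, inhibition and membrane rupture.

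Of 14 tested genes of activation and priming, 2 (14.3%) were called, and both were lower in CX3CR1- cells, beside a background of 8.15%. P2rx7, the receptor for extracellular ATP whose opening lets potassium leave the cell, had values of 258, 475 and 641 in CX3CR1- cells and 1747, 2183 and 1822 in CX3CR1+ cells. It was 4.19-fold lower, with a log2 fold change of -2.15 (SE 0.29, adjusted p 4.75e-04 by limma). Tlr2, a receptor for bacterial lipoproteins that gives a priming signal, had values of 159, 218 and 325 against 2067, 2636 and 2435. Tlr2 was 10.2-fold lower and had the largest log2 fold change of the pathway genes in this direction, -3.40 (SE 0.25, adjusted p 1.24e-05 by limma). The other 12 genes of this role, among them Nek7, Myd88 and Txnip, were not called. Panx1 and Tlr4, named after their values were seen, came close. Panx1, a channel that releases ATP, had 73.8 ± 12.98 against 31.1 ± 22.7 (1.48 on the log2 scale, adjusted p 0.0652 by limma), and was called higher with equal totals without mitochondrial genes and without CX3CR1+ replicate 2 (2.03). Tlr4, the lipopolysaccharide receptor, had 165 ± 32.4 against 325 ± 84.0 (-0.96 on the log2 scale, adjusted p 0.0215 by limma), and was called lower with library quality weights and without CX3CR1- replicate 2 (-1.07), CX3CR1- replicate 3 (-1.02) or CX3CR1+ replicate 2 (-1.08).

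The cytokines released through the pathway split. Il1b, the main substrate of caspase-1, had values of 3286, 4274 and 4540 in CX3CR1- cells and 7077, 10882 and 10595 in CX3CR1+ cells. Its means of 4033 ± 660.4 and 9518 ± 2119 (SD, n = 3 each) made it 2.36-fold lower in CX3CR1- cells (-1.23 on the log2 scale, SE 0.20, adjusted p 0.00129 by limma), and the difference fell below 2-fold with quantile normalization (-0.70, adjusted p 0.0314 by limma). Il1a was 3.45-fold lower, at 416 ± 108 against 1434 ± 507, or -1.75 on the log2 scale, and had an adjusted p of 0.00126 by limma. Il18 was low in both, at 33.8 ± 13.7 and 27.9 ± 8.92, and was not called (adjusted p 0.724 by limma).

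Of the pore and membrane rupture genes other than Gsdmd, 2 were tested and they went in opposite directions. Ninj1, which breaks the plasma membrane late in lytic death, had values of 70.5, 76.8 and 103 in CX3CR1- cells and 362, 605 and 455 in CX3CR1+ cells, a 5.68-fold lower value with a log2 fold change of -2.48 (SE 0.27, adjusted p 1.06e-04 by limma). Gsdme, a gasdermin that is cut by caspase-3, was higher in CX3CR1- cells, at 285 ± 75.7 against 129 ± 27.2 (SD, n = 3 each), a difference of 1.12 on the log2 scale (adjusted p 0.0149 by limma). The Gsdme call was lost without CX3CR1- replicate 1 or 2 or CX3CR1+ replicate 1 or 3, with log2 fold changes of 0.97 to 1.12.

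Of the 8 tested genes that the list placed among inhibitors, 4 were called higher in CX3CR1- cells, beside a background of 12.2%. The 4 include Ptpn22, although its described action on NLRP3 permits activation and does not inhibit it. For Ifi205 the role is that of the list alone, and no inhibiting action is claimed here. The 4 also include Serpinb1a and Trim31, which passed the filter through CX3CR1- libraries only, so this share is a description. Serpinb1a, an inhibitor of neutrophil proteases that also restrains inflammatory caspases, had values of 364, 283 and 132 in CX3CR1- cells and 1.83, 0 and 3.02 in CX3CR1+ cells, with 2 CX3CR1+ libraries at or under 3 reads. The fitted log2 fold change was 6.73 (adjusted p 3.84e-05 by limma), between 7.22 and 4.43 with pseudocounts of 0.5 and 10. Trim31, a ubiquitin ligase described as an inhibitor of NLRP3, had values of 111, 106 and 85.8 in CX3CR1- cells and 0 in every CX3CR1+ library. Against 3 reads per CX3CR1+ library, a mean value of 2.70, Trim31 was at least 37.3-fold higher in CX3CR1- cells (adjusted p 3.02e-05 by limma). Both genes passed the filter on low values through their CX3CR1- libraries only, so their calls are a description. Ptpn22, a phosphatase of immune cells whose removal of phosphate from NLRP3 has been described as permitting activation, was 2.29-fold higher at 373 ± 53.8 against 163 ± 16.2 (log2 fold change 1.18, adjusted p 0.00271 by limma). Ifi205, a protein related to AIM2, was 2.17-fold higher at 677 ± 170.3 against 312 ± 35.2 (log2 fold change 1.09, adjusted p 0.00641 by limma), and its call was lost without CX3CR1- replicate 3 (0.94) or CX3CR1+ replicate 2 (0.995 on the log2 scale, under the threshold of 1). The inhibitor that was lower was Tnfaip3, which encodes the NF-kappaB inhibitor A20, at 2984 ± 550 (SD, n = 3) against 7691 ± 1981 (SD, n = 3), with a log2 fold change of -1.35 (SE 0.21, adjusted p 0.00116 by limma), and it was under 2-fold with quantile normalization (-0.84, adjusted p 0.0105 by limma). Trim31 and Serpinb1a, like Nlrp6, were low in the CX3CR1+ libraries. Most markers of epithelial cells, fibroblasts, conventional dendritic cells and B and plasma cells were low there too. The part of RNA of any of these cell types in the values of Trim31 and Serpinb1a was not tested.

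Of the 12 tested sensors on this list, Naip1 was the only gene called. Nlrc5, named after its values were seen, did not overlap between the populations (-0.94 on the log2 scale, adjusted p 0.0217 by limma). It was called lower without CX3CR1- replicate 3 (-1.15). Of the 5 genes of membrane repair none was called under these thresholds by limma, although Vps4b and Pdcd6ip had adjusted p of 0.0273 and 0.0406. Their log2 fold changes were -0.98 and -0.71. Vps4b was called lower without CX3CR1- replicate 1 (-1.08) or CX3CR1- replicate 3 (-1.20).

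**Figure D4:**
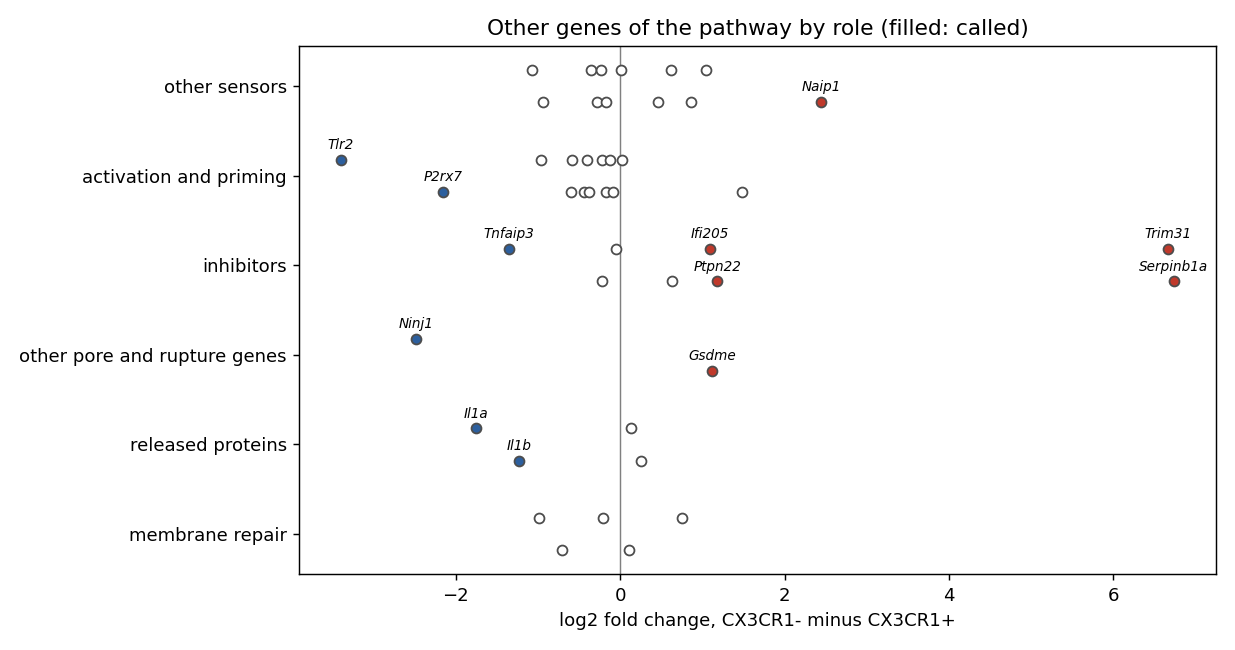
Log2 fold change between CX3CR1- and CX3CR1+ cells of the tested pathway genes of 6 roles, members left out, 1 point per gene, in rows by role, with called genes filled (red higher, blue lower in CX3CR1- cells) and named. The 6 genes called lower are Tlr2, P2rx7, Tnfaip3, Ninj1, Il1a and Il1b, and the points of Trim31, Serpinb1a and Naip1, which have CX3CR1+ libraries at or under 3 reads, depend on the pseudocount.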

How the data were processed

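The authors sequenced 75 bp single reads from an unstranded kit, pseudoaligned them with kallisto to GENCODE vM16 (mm10), and took the estimated counts to the gene level, followed by DESeq2 normalization. The deposited signal is the result, normalized between libraries. Its values are not counts (40.7 to 43.2% of values were whole multiples of a library's smallest step, within 0.01 of a step), so no count model was run. Without strand, reads of overlapping genes on opposite strands cannot be told apart. Replicates 1, 2 and 3 are numbered by ascending library number in the titles, which give no pairing. The 17812 genes that averaged at least 10 entered a two-sided limma 3.58.1 test in R 4.3.3 (lmFit, eBayes with trend) of log2(value + 1). P-values were adjusted over all of them by Benjamini-Hochberg. An exact two-sided permutation test of 3 libraries against 3 cannot go below p = 0.1, and it gave 0.1 for the 6 members without overlap and 0.3 to 0.7 for the others. The precision of a mean is the SD over 3 libraries, and the value of 3 reads, from the smallest step, is a floor that covers counting error only. The test was checked on simulated data.

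The members and all lists were chosen with earlier results of these data known. Named were all members, Il1b, Il18, paralogs, up to 4 called pathway genes per role and direction, marker genes, and the 2 genes nearest to each member in pattern. Positions, principal transcripts and shared 31-base stretches came from GENCODE M21 on GRCm38, and promoters from RefSeq on GRCm38.p6. The NF-kappaB letters were narrowed after GGG, any 5 bases and CC was found in 45.8% of promoters. Plots were drawn with matplotlib 3.10.9. A gene of the pathway list is counted but not reported here.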

Additional observations from a re-analysis of the deposited data

How the results depend on the processing

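The alternatives were pseudocounts of 0.5 and 10, no filter, a minimum mean of 50, quantile normalization, median-of-ratios rescaling, equal totals without mitochondrial genes, no trend, library quality weights, a block, no fold threshold and leaving out each library in turn. Nlrp3 (-2.78 to -2.27) and Nlrc4 (-2.03 to -1.64) stayed lower and past both thresholds in all 16 fits of each, and Nlrp6 stayed higher (2.64 to 4.71) in its 15. A mean of at least 50 left 0 members called higher, since it removed Nlrp6, and no fold threshold gave 2, since it added Gsdmd. Without a fold threshold 10 pathway genes were lower, against 6. Casp4 fell below 2-fold with quantile normalization (-0.75), equal totals (-0.91) and without CX3CR1- replicate 2 (-0.97). Leaving out a library gave 1 member higher each time, 2 to 3 members lower, 5 to 6 pathway genes higher and 6 to 9 lower. Without 1 library, Naip5 ranged from -0.48 to 0.037, its sign changing without CX3CR1- replicate 1, and Pycard from -0.065 to 0.54, its sign changing without CX3CR1- replicate 2. Neither was called in any fit. The adjusted p of Gsdmd was 0.0625 without the trend. Quantile normalization lost the calls of Il1b (-0.70), Tnfaip3 (-0.84) and Naip1 (1.74). Over all genes it moved the median to -0.15 (log2), and equal totals to 0.16, with 50.6% and 69% of calls being higher, against 60%. With a replicate block of adjacent library numbers, 1 member was higher, 3 were lower, Naip1 was lost (adjusted p 0.0590 by limma) and Panx1 was gained as higher (adjusted p 0.0389). Deviations within the adjacent pairs correlated at 0.104, 0.038 and 0.0142. No source says whether adjacent libraries share animals or a sort, and with 3 libraries per population these values do not decide it. At this depth Nlrp6 and Naip1 are near the limit of measurement in CX3CR1+ cells.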

Other observations

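Nlrp3, Nlrc4 and Casp4 were lower in CX3CR1- cells together with all 12 macrophage markers, whose median log2 fold change was -2.41. The value of each gene was therefore also set against the mean log2(value + 1) of these markers in the same library. This measure was added after the values had been seen. The markers include Cx3cr1, whose locus carried the sorting signal, so its part of the mean was bound to the sort. Relative to the markers, Nlrp3 lay between -0.22 and 0.08 in CX3CR1- libraries and between -0.20 and 0.33 in CX3CR1+ libraries, so the populations overlapped. Nlrc4 lay between -3.28 and -2.42 against -3.59 and -3.27, which overlapped by 1 library and by less than 0.01, and its mean was 0.63 higher in CX3CR1- cells. Casp4 lay between 0.04 and 0.44 in CX3CR1- libraries and between -1.23 and -1.06 in CX3CR1+ libraries, without overlap, a difference of 1.41 on the log2 scale. The marker mean itself was 9.07 to 9.27 in CX3CR1- libraries and 11.60 to 11.72 in CX3CR1+ libraries. Any gene that fell less than the markers comes out higher in CX3CR1- cells by this measure. The direction for Nlrc4 and Casp4 was thus bound to the subtraction and is given as a description. The overlap for Nlrp3 was bound to it too, since its log2 fold change of -2.64 lay near the median of the markers. Single markers ranged from -3.92 (Cx3cr1) to -1.45 (Cd68), so the result depends on the list. The part of macrophage RNA content in the differences of the 3 genes was not tested.

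Within the CX3CR1- libraries, Nlrp6 minus the mean of the 13 epithelial markers was -2.71, -2.49 and -3.66 on the log2 scale in replicates 1, 2 and 3. In the CX3CR1+ replicates it was -0.60, 1.995 and 0.84, but there Nlrp6 and most of the markers lay near the value of 3 reads, so these differences are not read as levels.

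Nlrp9b, a sensor known from intestinal epithelial cells, was listed but not tested because of its low mean. Its mean was 10.3 ± 2.67 in the CX3CR1- population and 0.659 ± 1.14 in the other (SD, n = 3 each). All 3 CX3CR1+ libraries were at or under 3 reads. Set against 3 reads per CX3CR1+ library, a mean value of 2.70, the CX3CR1- mean of Nlrp9b gave a ratio of 3.81. This ratio is not a lower bound, since CX3CR1+ replicate 2 held a value of 1.98. The low CX3CR1- values also carry counting error, so the values of Nlrp9b are a description.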
